A study of Homo sapiens with 8 samples.

Results

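Protocadherins are the largest branch of the cadherin family of calcium-dependent adhesion proteins, and 65 protein-coding genes whose symbol begins with PCDH were measured here, of 30386 genes in all and 16828 protein-coding ones. They were chosen by symbol and biotype alone. The alpha cluster held 15 of them, the beta cluster 16 and the gamma cluster 22, all on chromosome 5, and 12 were non-clustered genes outside these arrays. Polyadenylated RNA was sequenced from endothelial cells (iEC, 4 samples) and retinal endothelial cells (iREC, 4 samples). Both derive from 1 established line of human induced pluripotent stem cells, WTC-TJP1, and were collected at passage 1. The labels give the same cell type entry for both groups, endothelial cells derived from induced pluripotent stem cells, and tell them apart by the sample group. They name no agent, medium or time that made the iREC. Each group has samples lettered C, D, E and F. The series text mentions matched differentiations but not what a letter marks, and the main comparison was unpaired. Nothing in the labels says that the samples came from separate cultures, so p-values measure the spread between these samples, which may be technical.

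In the clustered families each gene has a variable exon with its own promoter. Every variable exon of the alpha cluster is spliced to the same constant exons, which encode a shared cytoplasmic tail, and the gamma cluster has constant exons of its own, while beta genes lack them. Neurons are known to switch on different sets of these promoters in single cells, with the factor CTCF bound at a conserved promoter element. The C-type genes at the end of the alpha and gamma arrays (PCDHAC1, PCDHAC2, PCDHGC3, PCDHGC4 and PCDHGC5) are regulated apart from the rest. Non-clustered protocadherins are single genes. PCDH12, also called VE-cadherin-2, is known from endothelial junctions, and the delta-2 group (PCDH8, PCDH10, PCDH17, PCDH18 and PCDH19) binds the actin-regulating WAVE complex.

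Totals ran from 14877502 to 16971865 counts in iEC and from 13739364 to 15987839 in iREC, and 3 counts, the floor used here for detection, were worth 0.177 to 0.218 CPM, a count scaled to a common library total. Of 10 endothelial markers, all 10 passed the filter on low counts, and their summed level was 6783 to 8795 CPM in iEC against 4198 to 9295 CPM in iREC. The level of 4198 CPM was that of iREC F. The same sample was the highest in the summed mural and mesenchymal markers (5881 CPM, against 1340 to 2118 CPM in the other iREC and 254 to 520 CPM in iEC), epithelial markers (4913 CPM, against 303 to 1116 CPM and 390 to 1171 CPM) and pluripotency markers (553 CPM, against 91.4 to 220 CPM and 44.1 to 112 CPM). In iREC F most of the pluripotency sum was LIN28A (480 CPM), with POU5F1 at 0.392 CPM and DPPA4 at 22.4 CPM. Most of the epithelial sum there was KRT8 (3017 CPM) and KRT18 (1534 CPM), with EPCAM at 3.27 CPM and CDH1 at 81.4 CPM. The part of these 3 marker groups in the results that follow was not tested. The count of called protocadherins is also given without iREC F. In bulk RNA, fewer cells of a type and less RNA per cell cannot be told apart.

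The promoter windows of RefSeq (GRCh38.p14, 250 bases before a start to 50 after it) show how the clustered genes are related. Windows were found for 58 of the 65 members. A motif search on both strands took CGCTG with its neighbours, as CGCTGT or GGCGCTG; the letters were picked after the windows had been read. One or the other stood in the windows of 36 of 47 clustered genes and of 3 of 11 non-clustered genes, against 19.8% of all 35116 windows. In each cluster, the run of 10 bases ending in CGCTG that the largest number of its genes held was GATGTCGCTG for alpha (6 of 13 genes, 0.0427% of all windows), GGTGGCGCTG for beta (12 of 14 genes, 0.276%) and GGCGCCGCTG for gamma (6 of 20 genes, 0.484%). None of the 3 runs stood in a window of either other cluster. Each contains CGCTG, which on its own stood in 48.0% of windows, and GGTGGCGCTG contains GGCGCTG. The 30 bases around CGCTG are shown so that the clusters can be compared, in lower case with CGCTG in capitals, 5′ to 3′ on the plus strand. They are given for clustered members chosen from those whose levels come further on, with a match on that strand clear of the window ends.
PCDHA10: aaagccaccggatgtCGCTGtcgtccacaa
PCDHAC2: tgagcagtccgggttCGCTGtccgccactt
PCDHB2: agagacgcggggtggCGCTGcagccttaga
PCDHB8: gaggacccgtggtggCGCTGcaggataaga
PCDHB12: ggagacgcgtggtggCGCTGcaggataata
PCDHB13: gaggacgcgtggtggCGCTGcaggataaga
PCDHB15: gacaacgcatggtggCGCTGcaggctaagg
PCDHB16: gagaacgcgtggtggCGCTGcaggttaaga
PCDHGB2: aaaacctctgagcgtCGCTGttggtcaaaa
PCDHGA9: taggactctgagcgcCGCTGttgatcaact
PCDHGB6: ggagcctctgggcgcCGCTGtcggccagtg
PCDHGA10: taggactctgagcgcCGCTGttcacctact
PCDHGC3: tgggactctgtgtgcCGCTGtcggccaatg
PCDHGC4: gctgagcccgggagcCGCTGtctgccaatc
These stretches run from chr5:140855842-140855871 for PCDHA10 to chr5:141484953-141484982 for PCDHGC4. The bases next to the capitals are partly set by the motifs searched. No stretch is shown for PCDHAC1, PCDHA4, PCDHA11, PCDHA12 and PCDHGB7. Windows were found for 13 of 15 alpha and 20 of 22 gamma genes. A gene without a stretch may therefore lack a window, lack these letters, or hold them on the other strand or near a window end. A match is a description and not a bound site, and whether it is the conserved promoter element was not tested. The windows of PCDHAC2 (chr5:140966226-140966525) and PCDHGC3 (chr5:141475716-141476015), both on the plus strand, are printed whole because they are the called C-type genes with a stretch shown above. Each CGCTG is in capitals.
PCDHAC2: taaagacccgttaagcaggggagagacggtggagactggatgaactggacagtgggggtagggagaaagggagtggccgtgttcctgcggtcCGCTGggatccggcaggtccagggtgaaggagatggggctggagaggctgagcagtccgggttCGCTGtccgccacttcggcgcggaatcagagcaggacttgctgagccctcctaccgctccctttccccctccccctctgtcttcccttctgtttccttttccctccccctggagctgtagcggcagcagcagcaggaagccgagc
PCDHGC3: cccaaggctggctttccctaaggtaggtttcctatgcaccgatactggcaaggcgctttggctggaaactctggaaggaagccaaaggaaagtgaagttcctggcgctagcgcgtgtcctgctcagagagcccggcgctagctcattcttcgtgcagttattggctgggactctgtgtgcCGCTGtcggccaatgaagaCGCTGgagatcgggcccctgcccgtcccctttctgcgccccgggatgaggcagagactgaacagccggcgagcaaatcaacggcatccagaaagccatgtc

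Of the 65 protocadherins, 43 passed the filter on low counts and 22 did not. By edgeR's quasi-likelihood test at a Benjamini-Hochberg adjusted p under 0.05, 9 were called higher in iREC and 2 lower, 25.6% of the 43. Over all 15330 tested genes 25.0% were called, 13.2% higher and 11.7% lower, so the family as a whole was called at the background rate. Its non-clustered members stood at 8 called of 10 tested, and its clustered members at 3 called of 33. The 3 were C-type genes. Among the other 29 tested clustered genes 0 were called by edgeR, 4 had an unadjusted p under 0.05, and DESeq2 called PCDHGB2 and PCDHA12. PCDHGA9, a gamma gene below the filter that is not C-type, was called by DESeq2 as well, and all 3 are described further on. Without iREC F the count was 9 higher and 3 lower. Of the called genes, PCDH18, PCDH11X and PCDH11Y passed the filter through the iREC samples alone, where they are high, so the counts are a description.

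**Figure D1:**
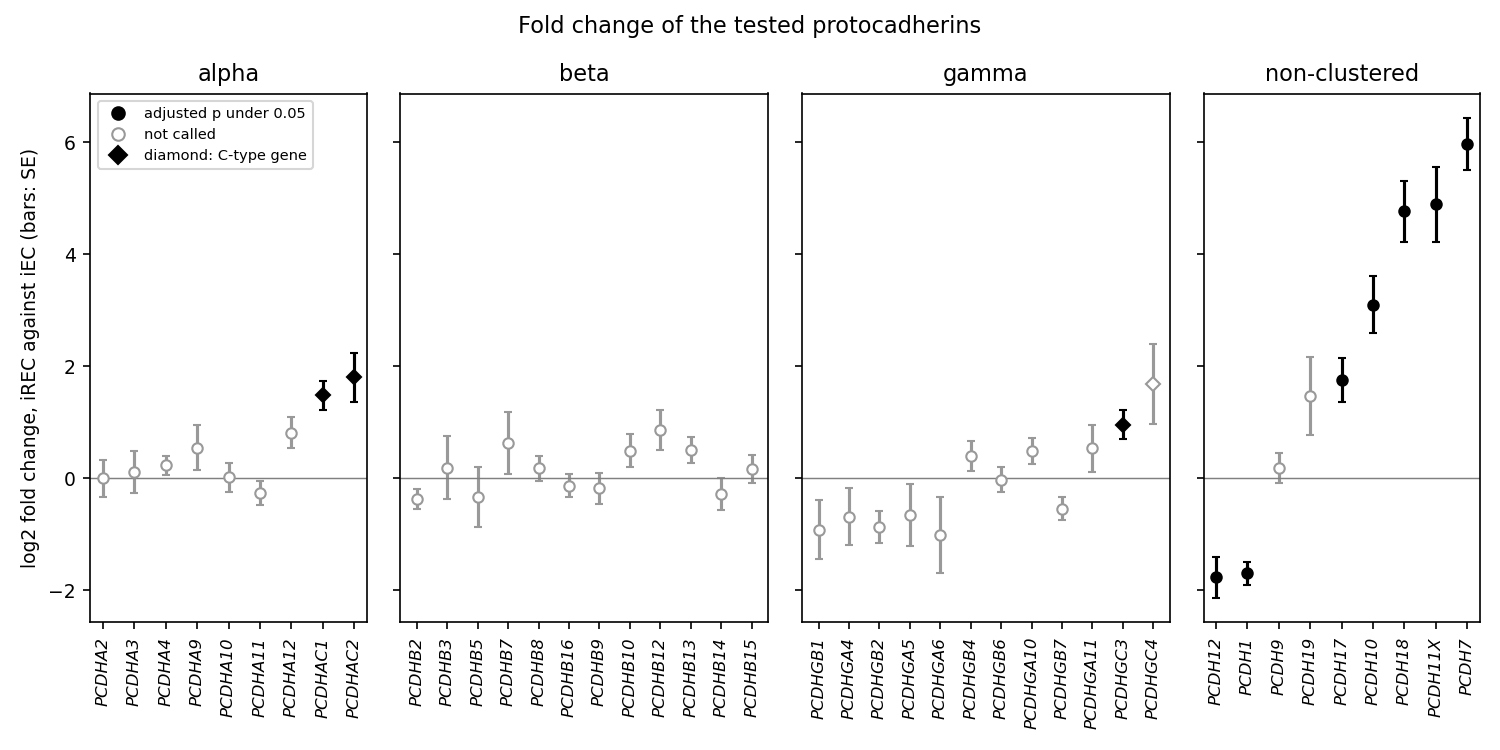
Log2 fold change of iREC against iEC for each tested protocadherin except PCDH11Y, with its standard error, in chromosomal order within the alpha, beta and gamma clusters and by size among the non-clustered genes. Filled symbols passed an adjusted p under 0.05 and diamonds are C-type genes. The alpha, beta and gamma genes that are not C-type lie between -1.01 and 0.87, while non-clustered genes reach from -1.77 to 5.98.

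PCDH12 and PCDH1, known from endothelial and epithelial junctions, fell, while PCDH17 and PCDHGC3, described further on, rose. PCDH12 (ENSG00000113555, chromosome 5, 141943585 to 141969741, minus strand) was 161, 210.0, 96.4 and 142 CPM in iEC C, D, E and F, and in the iREC of the same letters it was 32.2, 39.5, 81.2 and 25.7 CPM. All iEC samples were above all iREC samples, with iREC E the nearest. The log2 fold change was -1.77 ± 0.37 (SE, adjusted p 0.00806 by edgeR), a 3.41-fold lower level, from 152 ± 47.0 to 44.6 ± 25.0 CPM (SD, n = 4). Antisense to it, RNF14 covers 1.58% of its exon bases. PCDH1 (ENSG00000156453, chromosome 5, 141853111 to 141879246, minus strand), a delta-1 protocadherin of airway epithelium and endothelium, was 159, 188, 90.2 and 158 CPM in iEC against 48.7, 39.7, 46.1 and 49.0 CPM in iREC. The iREC values were close together and all below the lowest iEC value. PCDH1 changed by -1.70 ± 0.21 on the log2 scale (SE, adjusted p 0.000527 by edgeR), from 149 ± 41.3 to 45.9 ± 4.34 CPM (SD, n = 4). In both genes iEC E was the lowest iEC sample and iEC D the highest.

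The fall in both genes stood beside mixed endothelial markers. Of the 10 markers 6 were called, 4 lower and 2 higher, against 25.0% of all tested genes (13.2% higher, 11.7% lower), and without iREC D 3 were called. Their median log2 fold change was -0.28, against 0.02 over all tested genes. PECAM1, the platelet endothelial adhesion molecule, fell by 1.57 on the log2 scale (adjusted p 0.000632 by edgeR), and the angiopoietin receptor gene TEK rose by 3.82 (adjusted p 0.00011 by edgeR). The transcription factor ERG stood at 198 CPM in iEC against 215 CPM in iREC and was not called (adjusted p 0.713 by edgeR). In iREC E, where the summed markers reached 9295 CPM, PCDH12 was also the highest of the iREC, and in iREC F, where they were lowest, PCDH12 was the lowest. PCDH1 did not keep to this order. It stood at 46.1 CPM in iREC E and had its highest iREC value, 49.0 CPM, in iREC F. The order of these 4 samples is given as values only.

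The gene with the largest fold among the called members was PCDH7. This delta-1 protocadherin, known from brain and heart (ENSG00000169851, chromosome 4, 30720415 to 31146805, plus strand), was 1.75, 7.76, 5.37 and 7.93 CPM in iEC against 416, 307, 255 and 462 CPM in iREC. Every iREC sample was far above every iEC sample. The log2 fold change was 5.98 ± 0.46 (SE, adjusted p 5.38e-05 by edgeR), or 63.2-fold. PCDH11X (ENSG00000102290, chromosome X, 91779261 to 92623230, plus strand), another delta-1 gene, had 0, 4, 2 and 2 counts in iEC and 107, 58, 46 and 35 counts in iREC, so the groups did not overlap. Its log2 fold change of 4.89 ± 0.66 (SE, adjusted p 0.000825 by edgeR) rests on 8 iEC counts in all. Of the stretches of 50 bases in its transcripts, 56.1% occur also in transcripts of PCDH11Y, so reads of this pair cannot be fully told apart. PCDH11Y was called higher too; as a Y-linked gene its levels are not given. PCDH9, the remaining delta-1 gene, was 4.61, 3.59, 6.38 and 6.28 CPM in iEC against 4.96, 4.91, 5.85 and 7.97 CPM in iREC. The groups overlapped and PCDH9 was not called (0.18 ± 0.27 SE on the log2 scale, adjusted p 0.665 by edgeR).

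Of the delta-2 genes, 3 were called higher, against 13.2% of all tested genes. PCDH10, called OL-protocadherin in the brain (ENSG00000138650, chromosome 4, 133149315 to 133208606, plus strand), was 35.4, 127, 42.9 and 24.4 CPM in iEC against 687, 452, 473 and 366 CPM in iREC. The iEC D sample stood above the other iEC samples but below all iREC samples. The log2 fold change was 3.11 ± 0.50 (SE, adjusted p 0.00216 by edgeR), and 3.84 without iEC D. PCDH18 (ENSG00000189184, chromosome 4, 137518918 to 137532494, minus strand) was 0.713, 1.70, 1.24 and 0.571 CPM in iEC against 14.95, 27.4, 17.7 and 56.9 CPM in iREC. Its highest value was in iREC F, the sample highest in the mesenchymal markers, and the log2 fold change of 4.77 ± 0.54 (SE, adjusted p 0.000339 by edgeR) was 4.22 without that sample. PCDH17 (ENSG00000118946, chromosome 13, 57631810 to 57729311, plus strand), described in axon growth, was 5.64, 12.2, 7.50 and 4.43 CPM in iEC against 37.5, 17.4, 30.9 and 14.6 CPM in iREC. The groups did not overlap, although iREC F and iEC D were close. PCDH17 rose by 1.75 ± 0.39 on the log2 scale (SE, adjusted p 0.0108 by edgeR). Antisense genes cover 7.86% of its exon bases, 4.05% of those of PCDHAC2, 15.03% of those of PCDHB2, 16.3% of those of PCDHB16 and 10.6% of those of PCDHA12. Whether the counting used the strand is not stated, so reads there are uncertain.

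The other delta-2 genes were low. PCDH19, mutated in a female-limited epilepsy, had 12, 64, 23 and 7 counts in iEC and 47, 52, 161 and 31 counts in iREC, with overlapping groups. It was not called (1.47 ± 0.70 SE on the log2 scale, adjusted p 0.158 by edgeR) but was called without iEC D (log2 fold change 2.38, adjusted p 0.0306 by edgeR). PCDH8 had 0 counts in every iEC sample and at most 2 in iREC, and PCDH15, a tip-link protein of hair cells, had at most 4 counts in any sample. Both were below the filter, and a difference was not detectable at this depth.

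**Figure D2:**
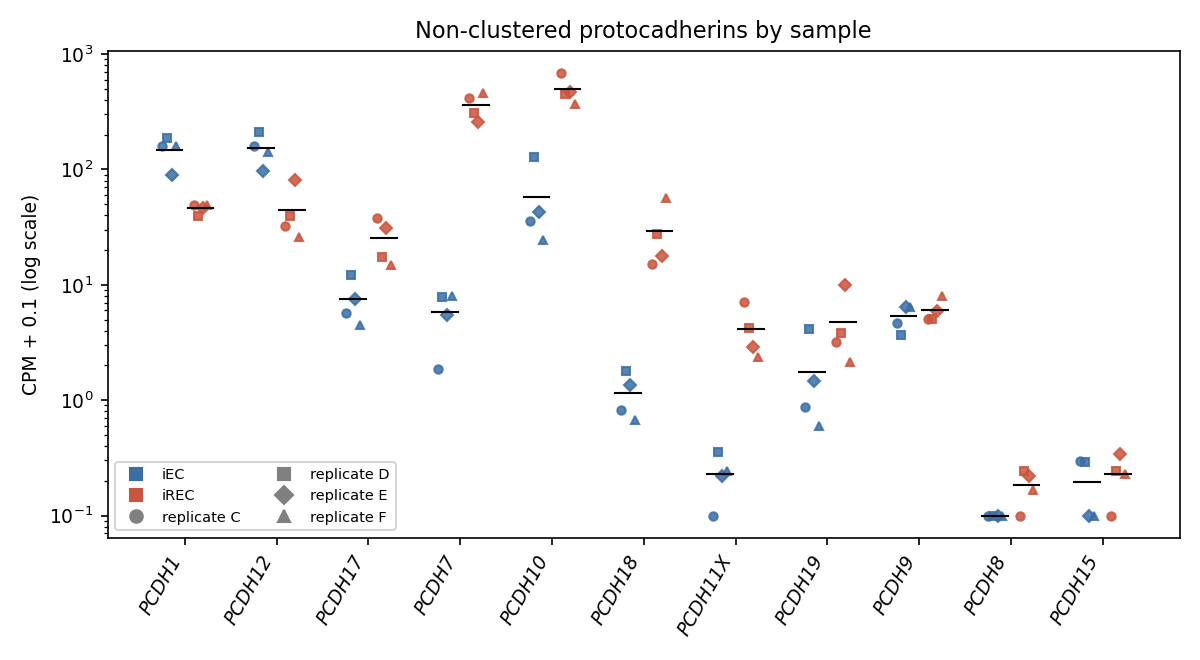
Level of the 11 non-clustered protocadherins outside the Y chromosome in each sample, as CPM plus 0.1 on a log axis, with iEC in blue, iREC in red, a symbol for each replicate letter and a bar at the group mean. PCDH1 and PCDH12 lie lower in iREC, PCDH17, PCDH7, PCDH10, PCDH18 and PCDH11X lie higher without overlap, and PCDH9 overlaps.

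Per length, the leading protocadherins of the groups were different genes. Levels were divided by the exon bases that no other annotated gene covers. In iEC, PCDH1 had 25.2 ± 6.998 and PCDH12 22.7 ± 7.004 CPM per kb (SD, n = 4), which do not differ beyond their spread. PCDHGB6 followed with 11.3 ± 1.999 CPM per kb and PCDHB2 with 8.64 ± 1.93 CPM per kb. In iREC, PCDH10 led with 48.7 ± 13.4 CPM per kb and PCDH7 followed with 29.4 ± 7.78 CPM per kb. PCDHGB6 at 11.1 ± 3.17 and PCDHGA10 at 10.45 ± 1.25 CPM per kb came next and did not differ beyond their spread, followed by PCDH1 at 7.77 ± 0.735 CPM per kb. With all exon bases counted, PCDHGB6 and PCDHGA10 had 7.56 and 7.02 CPM per kb, below PCDH1. Together PCDH1 and PCDH12 made up 71.7% to 87.1% of the counts of the 11 non-clustered genes in iEC, and PCDH10 and PCDH7 made up 78.9% to 88.2% of them in iREC.

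Of the 4 tested C-type genes of the clusters, 3 were called, all higher. Over all tested genes 25.0% were called, 13.2% higher, and the groups of 29.1% did not overlap. PCDHAC2 (ENSG00000243232, chromosome 5, 140966235 to 141012344) was 10.7, 9.71, 4.43 and 2.57 CPM in iEC against 25.3, 23.9, 32.5 and 14.3 CPM in iREC. Each iREC sample exceeded each iEC sample, and the iEC samples fell apart into a higher pair, C and D, and a lower pair, E and F. The log2 fold change was 1.80 ± 0.44 (SE, adjusted p 0.0162 by edgeR). PCDHAC1 (ENSG00000248383, chromosome 5, 140926369 to 141012344) was 1.75, 1.64, 1.89 and 2.14 CPM in iEC against 5.94, 5.06, 5.97 and 3.79 CPM in iREC. Its groups did not overlap, and it rose by 1.48 ± 0.26 on the log2 scale (SE, adjusted p 0.00299 by edgeR). PCDHGC3 (ENSG00000240184, chromosome 5, 141475947 to 141512979) was 8.82, 12.2, 6.20 and 7.35 CPM in iEC against 15.1, 13.4, 15.9 and 22.7 CPM in iREC. Here iEC D and iREC D were close, though the groups did not overlap. PCDHGC3 rose by 0.96 ± 0.26 (SE, adjusted p 0.0246 by edgeR), and the call was lost without iEC C, E or F, with adjusted p of 0.0552, 0.0622 and 0.0549 by edgeR.

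PCDHGC4 was lower than these, with 13, 2, 3 and 1 counts in iEC and 17, 7, 27 and 11 counts in iREC. The groups overlapped through iEC C, and it was not called (1.68 ± 0.72 SE on the log2 scale, adjusted p 0.119 by edgeR). Without iEC C the log2 fold change was 2.89 with an adjusted p of 0.0184 by edgeR. PCDHGC5, with 2 to 16 counts a sample, was below the filter. Summed over the 5 C-type genes, the level was 18.1 ± 6.33 CPM in iEC against 47.6 ± 6.48 CPM in iREC (SD, n = 4), with at most 24.6 CPM in an iEC sample and at least 42.5 CPM in an iREC sample. This sum was made after the gene values had been seen and carries no test.

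**Figure D3:**
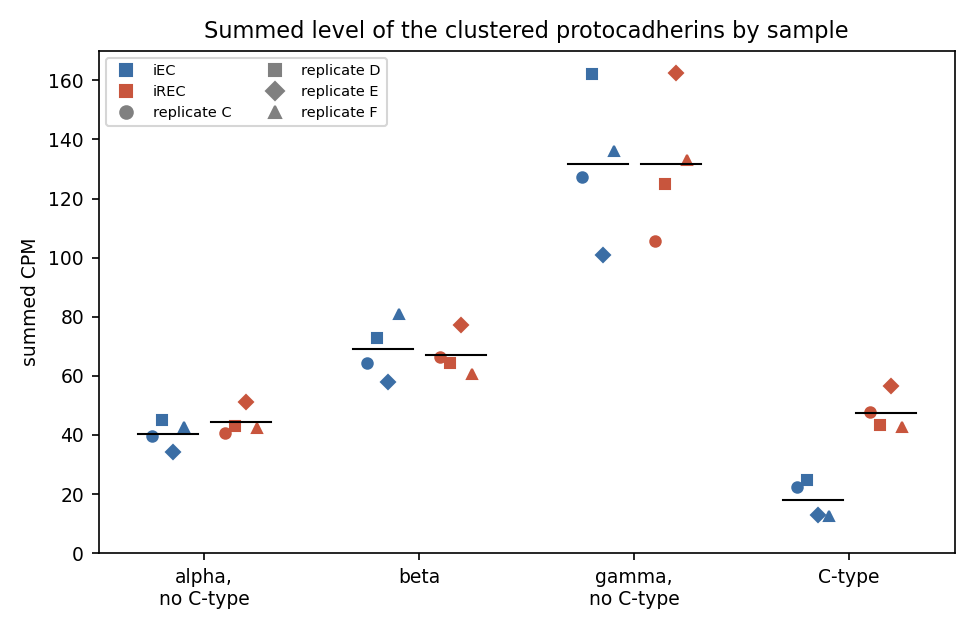
Summed CPM of the clustered protocadherins in each sample, with the C-type genes taken out of the alpha and gamma clusters and shown on their own, iEC in blue, iREC in red and bars at the group means. The groups overlap for alpha, beta and gamma genes and lie apart for the C-type genes, 12.6 to 24.6 CPM against 42.5 to 56.6 CPM.

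Without the C-type genes, the alpha genes summed to 40.4 ± 4.60 CPM in iEC against 44.3 ± 4.74 CPM in iREC, the gamma genes to 131.7 ± 25.2 and 131.5 ± 23.6 CPM, and the beta genes to 69.1 ± 10.02 and 67.1 ± 7.23 CPM (SD, n = 4). In each case the difference was smaller than the SD within a group. The median log2 fold change of the 29 tested genes was 0.018, against 0.020 for all tested genes, and 15 of them lay above 0 and 14 below. The 10 tested gamma genes among them had a median of -0.60, with 7 below 0, and none was called.

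PCDHGB6 and PCDHGA10, neighbours in the gamma array, took 56.5% to 63.5% of the gamma counts in iEC and 61.7% to 68.3% in iREC. PCDHGB6 was 54.4, 62.2, 40.0 and 51.9 CPM in iEC against 33.8, 49.6, 69.5 and 52.1 CPM in iREC, with iREC C lowest and iREC E highest (-0.024 ± 0.22 SE on the log2 scale, adjusted p 0.951 by edgeR). PCDHGA10 was 32.1, 49.2, 21.7 and 29.4 CPM in iEC against 41.6, 43.0, 54.0 and 47.9 CPM in iREC. Only iEC D reached the iREC values, and PCDHGA10 was not called (0.49 ± 0.23 SE on the log2 scale, adjusted p 0.150 by edgeR). Without iEC D it was, with a log2 fold change of 0.74 and an adjusted p of 0.0186 by edgeR. PCDHGB2 had 13.9, 20.9, 10.7 and 20.1 CPM in iEC against 10.1, 8.40, 11.6 and 5.75 CPM in iREC, overlapping through iEC E and iREC E. Its log2 fold change of -0.87 ± 0.29 (SE) stood just outside the threshold, with an adjusted p of 0.0533 by edgeR, and DESeq2 called it (adjusted p 0.0219). PCDHGB7, next to PCDHGA10, was 15.8 to 22.2 CPM in iEC against 9.79 to 17.3 CPM in iREC (-0.54 ± 0.21 SE on the log2 scale, adjusted p 0.0830 by edgeR), and was called without iREC F, at -0.71 with an adjusted p of 0.0235 by edgeR.

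In the beta cluster PCDHB2 led in every sample. It was 27.9, 34.2, 22.0 and 37.1 CPM in iEC against 20.7, 23.1, 27.4 and 22.8 CPM in iREC, with overlapping groups (-0.37 ± 0.18 SE on the log2 scale, adjusted p 0.177 by edgeR). Alone it took 37.9% to 47.0% of the beta counts in iEC and 31.2% to 37.7% in iREC. Of 12 tested beta genes 0 were called by edgeR, against 25.0% of all tested genes, and 1, PCDHB12, had an unadjusted p under 0.05, at 0.0358 by edgeR. PCDHB13 was the 1 beta gene whose groups did not overlap, at 2.92, 2.77, 4.02 and 3.64 CPM in iEC against 4.50, 4.63, 5.48 and 4.31 CPM in iREC, with an adjusted p of 0.148 by edgeR. Over all tested genes 29.1% did not overlap. PCDHB8, PCDHB15 and PCDHB16, the other beta genes with at least 5 CPM, had log2 fold changes of 0.18, 0.17 and -0.13. Near-identical sequence limits the split between them: 49.3% of the 50-base stretches of PCDHB8 and 35.4% of those of PCDHB10 occur in another gene.

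In the alpha cluster PCDHA4, PCDHA11 and PCDHA10 overlapped between the groups. PCDHA4 was 10.3 to 14.4 CPM in iEC against 13.3 to 16.1 CPM in iREC, PCDHA11 was 8.92 to 13.9 CPM and 7.55 to 11.2 CPM, and PCDHA10 was 4.84 to 8.37 CPM and 4.57 to 8.53 CPM. None of these 3 was called by edgeR, with adjusted p of 0.355, 0.415 and 0.969. PCDHA12, at 2.98, 2.71, 2.95 and 4.36 CPM in iEC against 5.09, 5.70, 4.204 and 7.91 CPM in iREC, overlapped through iEC F and iREC E. Its log2 fold change of 0.82 ± 0.28 (SE) had an adjusted p of 0.0613 by edgeR, and DESeq2 called it (adjusted p 0.0459).

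**Figure D4:**
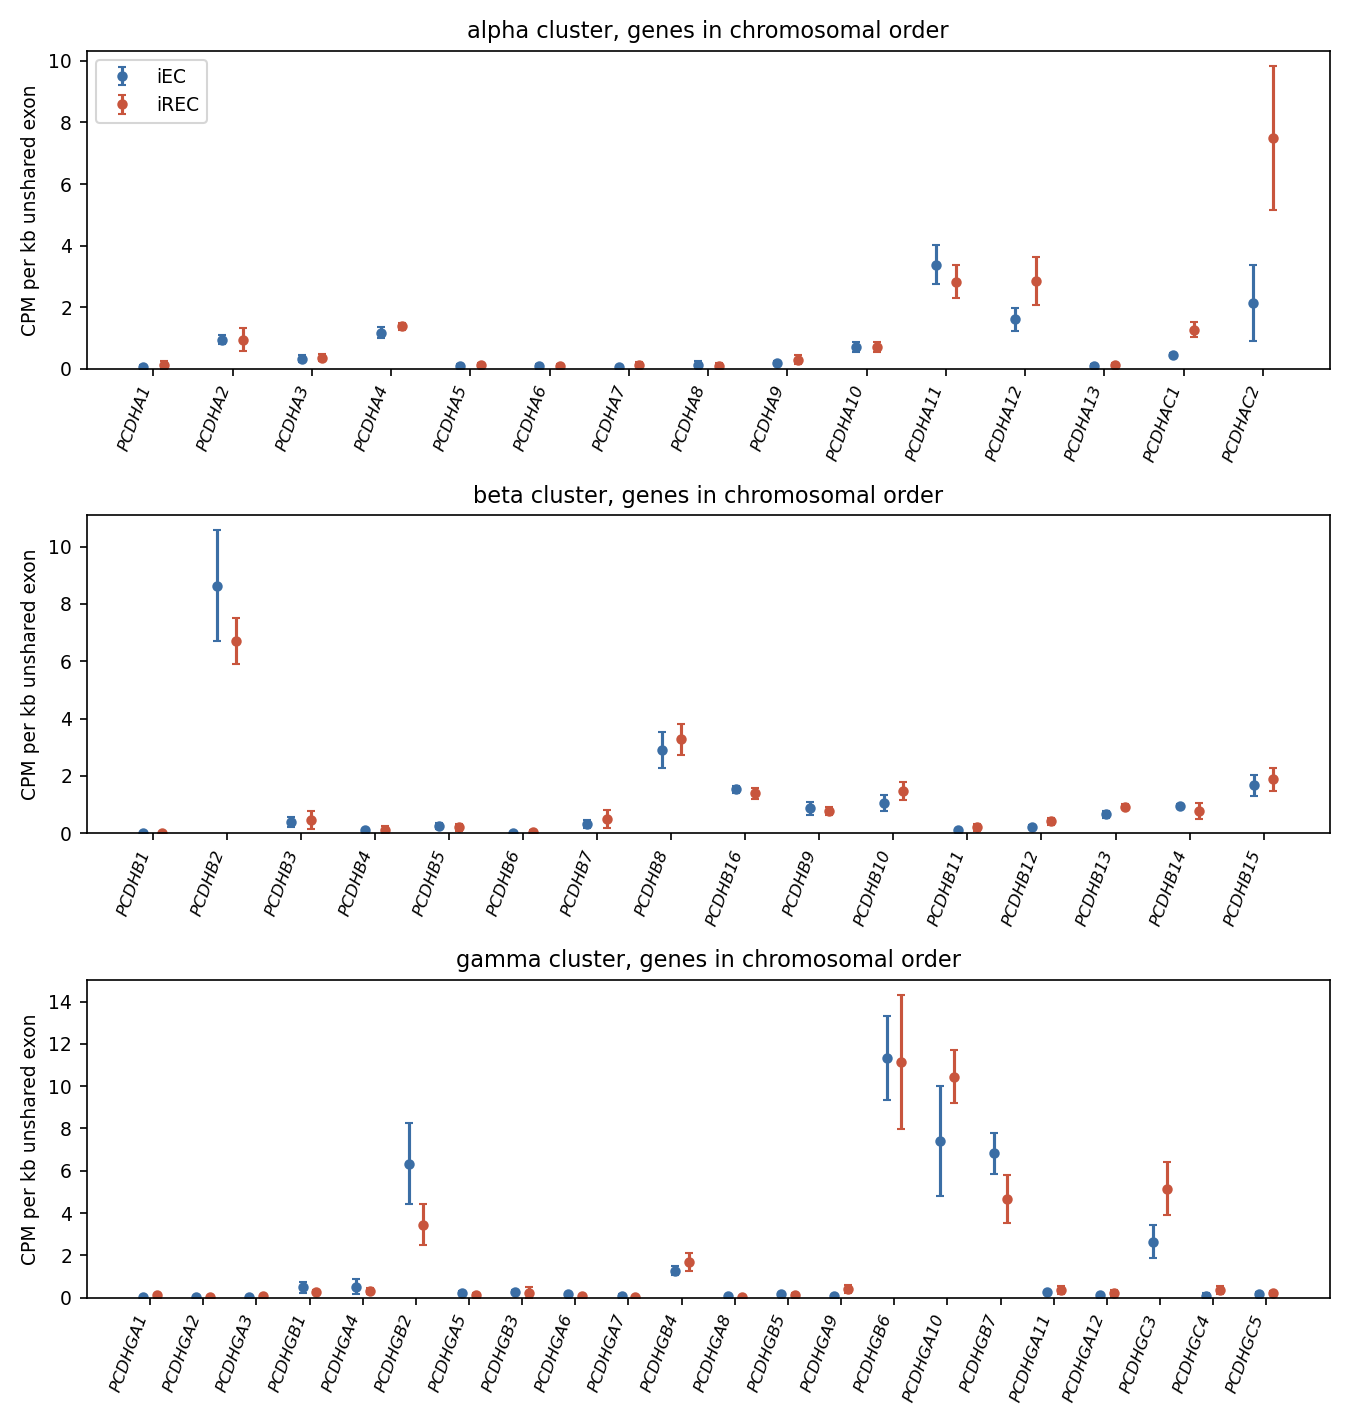
Level of every alpha, beta and gamma protocadherin, in chromosomal order, as CPM per kb of exon that no other gene covers, with the mean of 4 samples and bars of 1 SD for iEC in blue and iREC in red. PCDHB2, PCDHGB6 and PCDHGA10 stand out in both groups, and PCDHAC2 and PCDHGC3 lie higher in iREC.

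The 20 clustered genes below the filter were 6 alpha, 4 beta and 10 gamma genes. With PCDH8 and PCDH15, none of these 22 exceeded 27 counts in any sample, and of them PCDHB1 and PCDH8 stayed at or under 3 counts throughout. Above that floor, 42 to 45 of the 53 clustered genes were detected per iEC sample and 40 to 51 per iREC sample, iREC E having the most. With 10 counts as the limit, 30 to 34 were detected per iEC sample and 29 to 39 per iREC sample. The leading pair of clustered genes held 30.1% to 36.6% of the clustered counts in iEC and 28.97% to 35.9% in iREC.

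PCDHGA9 (ENSG00000261934, chromosome 5, 141402932 to 141512979) was the 1 gene below the filter that an alternative called, and it was picked out after its values were seen. It had 2, 5, 5 and 4 counts in iEC and 13, 7, 27 and 18 counts in iREC, so the groups did not overlap. Of the 7 alternatives that tested it, 6 called it higher, with log2 fold changes of 1.77 to 2.22 over the 7. The adjusted p was 0.0137 by DESeq2 and 0.0417 by edgeR without a filter, and the call was missed without iEC C (adjusted p 0.0539 by edgeR). Of its 50-base stretches, 46.1% occur in another gene, but only 0.681% in 1 to 5 other genes. PCDHGA8, another gamma gene below the filter, also had groups without overlap on the CPM scale. It had 4, 7, 5 and 4 counts in iEC and 3, 0, 4 and 3 counts in iREC, and was not called by DESeq2 (adjusted p 0.495).

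Reads of the constant exons bear on every alpha and gamma value, since 2866 or more exon bases of each alpha gene and 2181 or more of each gamma gene belong to other protocadherins as well. In iREC D the lowest gamma gene had 0 counts and the highest 697, so reads of the shared exons had not been credited to every gene. How they were treated is not stated, so reads of a constant exon cannot be traced to 1 alpha or gamma gene.

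Genes that act with protocadherins were read beside them. Of 12 tested cytoplasmic partners of protocadherins, WAVE complex genes and kinases, 6 were called, 5 lower and 1 higher. Over all tested genes 25.0% were called, 11.7% lower. The median log2 fold change of the 12 was -0.31, against 0.02 over all tested genes. Focal adhesion kinase PTK2 fell from 283 ± 37.4 to 166 ± 7.76 CPM, FYN from 202 ± 42.7 to 117 ± 11.8 CPM and the WAVE subunit CYFIP2 from 134 ± 22.1 to 67.2 ± 16.3 CPM, while WASF3 rose from 16.2 ± 4.11 to 55.3 ± 20.4 CPM (SD, n = 4; adjusted p 0.00168, 0.00742, 0.00545 and 0.00208 by edgeR). Of 7 proteases that cut protocadherins 1 was called (14.3%, below the 25.0% of all tested genes), the gamma-secretase subunit APH1B, which rose from 28.5 ± 4.28 to 49.1 ± 5.98 CPM (adjusted p 0.00508 by edgeR), and 2 without iEC F. ADAM10, which sheds their outer part, was 288 and 310 CPM and not called (adjusted p 0.616 by edgeR). Of 13 regulators of the clustered promoters 2 were called, both higher (15.4%, against 25.0% of all tested genes and 13.2% higher). The count was 0 without iEC E or iREC D, 1 without iEC F, iREC C, iREC E or iREC F, and 3 without iEC D. It was 1 with the replicate block, no filter or library size only, and 3 by DESeq2 or limma-voom. They were the chromatin protein SMCHD1 (log2 fold change 0.47, adjusted p 0.0462 by edgeR) and the histone methyltransferase SETDB1 (0.51, adjusted p 0.0166 by edgeR). CTCF was 55.4 and 59.5 CPM and not called (adjusted p 0.677 by edgeR).

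Of 28 tested other cadherins 19 were called, 16 higher and 3 lower, against 25.0% of all tested genes, with a median log2 fold change of 1.80. Of these, 3 (all called higher) passed the filter through iREC alone, where they are high, and 1 of the tested genes had 0 counts in every iEC sample. Among the 21 that passed in both groups 16 were called, 13 higher and 3 lower. The atypical cadherin FAT3 rose from 0.678 ± 0.346 to 22.4 ± 7.35 CPM, the classical cadherin CDH11 from 5.55 ± 3.07 to 135 ± 73.0 CPM and CDH8 from 1.12 ± 0.348 to 31.5 ± 38.0 CPM (SD, n = 4). VE-cadherin, CDH5, fell from 1348 ± 229 to 797 ± 203 CPM, T-cadherin CDH13 from 210 ± 32.7 to 145 ± 10.3 CPM, and the calsyntenin CLSTN3 from 154 ± 56.4 to 76.3 ± 10.5 CPM. The iREC values of CDH8 were 6.85, 23.4, 8.29 and 87.4 CPM, highest in iREC F, and its log2 fold change of 4.81 was 3.51 without that sample. These 6 had adjusted p of 7.35e-05, 0.000223, 0.00399, 0.0298, 0.0179 and 0.0148 by edgeR. The call of CDH5 was lost without iREC D and without any of iEC D, E and F (adjusted p 0.06 to 0.0785 by edgeR), and that of CDH13 without iREC D (0.0502). Without iREC F 16 cadherins were called, and 13 at the lowest when another sample was left out.

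Neurons express many protocadherins, so neural markers were counted as well. Of 6 tested 4 were called, 2 higher and 2 lower, against 25.0% of all tested genes, and the 2 called higher passed the filter through iREC alone. The summed level was 1290 to 1511 CPM in iEC against 294 to 650 CPM in iREC, most of it NES, which endothelial cells also express and which fell from 1415 ± 99.7 to 425 ± 167 CPM (SD, n = 4). The neural markers PAX6 and ELAVL3 did not exceed 3 counts in any sample, SOX1 and SOX2 did not exceed 6, and DCX and ELAVL4 were not analysed here. TUBB3 fell from 3.28 to 1.15 CPM (adjusted p 0.0116 by edgeR), SNAP25 rose from 1.64 to 7.04 CPM (adjusted p 0.0111 by edgeR) and STMN2 from 1.25 to 7.33 CPM (adjusted p 0.0499 by edgeR). The STMN2 call was lost when any sample but iREC C was left out. MAP2 was 7.05 CPM in iEC, 3.16 CPM in iREC and not called (adjusted p 0.154 by edgeR), nor was SYP at 0.742 and 1.15 CPM (adjusted p 0.297 by edgeR). Of 11 tested mural and mesenchymal markers 5 were called, 4 higher and 1 lower, against 25.0% of all tested genes. The count was 3 without iREC D, 9 without iREC C, 10 without iEC F, 8 with the replicate block, 9 with no filter and 11 by DESeq2. POSTN among them rose from 13.4 ± 13.3 to 850.2 ± 334 CPM, while RGS5 fell from 115 ± 46.1 to 43.8 ± 18.9 CPM (adjusted p 0.021 by edgeR). The RGS5 call was lost without iEC C, iREC D or iREC E. Whether cells with these markers carry part of the rise in PCDH7, PCDH10 or PCDH18 was not tested. In iREC E, the iREC sample with the lowest mesenchymal sum, the 3 genes were 255, 473 and 17.7 CPM, above every iEC sample. That sum, 1340 CPM, was itself above the 254 to 520 CPM of the iEC samples.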

How the data were processed

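RNA of 8 samples was selected on poly-T beads and its second strand made with dUTP, per the labels' protocols. The submitters' processing notes name fastp, HISAT2 2.0.5 and hg38; the counting program and strand setting are not given in the sources used here. The deposited table holds raw counts per gene, and all 30386 genes match GENCODE release 29 in identifier, start and end. The deposited gene length, in bases, equals the summed exon bases for all 65 members.

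Genes were kept by filterByExpr (a cutoff of 0.645 CPM in at least 4 samples), scaled by TMM and compared with edgeR 4.0.16 (glmQLFit, glmQLFTest, all 8 samples, group only), with p-values adjusted over 15330 genes. CPM uses TMM-scaled totals. DESeq2 1.42.0, limma-voom 3.58.1, other scalings and filters, protein-coding genes only, a replicate block and each sample left out were alternatives. On 15005 genes simulated for this comparison, edgeR recovered 36.8% of the tested 2-fold and 74.2% of the 4-fold changes, and 4.46% of its calls were false. Floors cover counting error only. Members named by rule were PCDH1, PCDH12, PCDH17, PCDHGC3, every called member and members of at least 5 CPM in a group. PCDH19, PCDHGC4, PCDHGC5, PCDHGA8, PCDHGA9, PCDHB1, PCDHB10, PCDHB12, PCDHB13, PCDH8 and PCDH15 were named after their values were seen. So were ERG, ADAM10, CTCF, PAX6, ELAVL3, SOX1, SOX2, TUBB3, MAP2, SYP, STMN2, SNAP25, POU5F1, KRT8, KRT18, EPCAM and CDH1. Other list genes are up to 3 called per direction with the largest fold changes and at least 10 CPM in a group. Members and lists were chosen with earlier results of these data known. No pair of replicates agreed within sampling noise.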

Additional observations from a re-analysis of the deposited data

How the results depend on the processing

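Of the 11 called protocadherins, 9 were called under every alternative that tested them; the exceptions were PCDHGC3 and PCDH11Y. Over the 10 alternatives with all samples, 8 to 11 members were called higher and 2 to 3 lower, and 3281 to 4954 genes in all. Leaving out 1 sample gave 8 to 12 higher, 2 to 3 lower and 2660 to 4214 genes in all. The called genes of the accompanying lists, 47 with all samples, went to 30 without iREC D and 53 at most; among all-sample alternatives they ran from 37 to 63. The sign of PCDHGB6, near 0, turned with upper quartile scaling (0.014), the stricter filter (0.0062) and without iEC D or iREC C (0.067 and 0.13; from -0.20 over the samples left out), and that of PCDHA10 without a filter (-0.0070) and without iEC E, iREC E or iREC F (-0.11, -0.11 and -0.014; up to 0.17 over the samples left out). PCDHA12 was also called with library size only (edgeR adjusted p 0.0498), the stricter filter (0.0479) and without iEC F (0.0387), and PCDHGB2 without a filter (0.0498), with the other quasi-likelihood form (0.0496) and without iEC E (0.0379). Counting a member as detected from 10 counts lowered the mean number per iEC sample from 12.3 to 9.5 in the alpha cluster and from 17.5 to 11.8 in the gamma cluster.

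The series text speaks of matched differentiations without saying what a letter marks. The letters did not meet the rule set for pairing, a correlation above 0.1 for every letter. With 4 samples a group, this cannot show that the samples were not matched. Deviations of same-letter samples correlated at 0.168, -0.0794, 0.0291 and 0.25 for C, D, E and F, and not every sample correlated best with its own letter. With the letter as a replicate block, 8 protocadherins were called higher, 2 lower and 3334 genes in all; PCDHGC3 had a log2 fold change of 0.97 and an edgeR adjusted p of 0.0534. The largest shift of the median log2 fold change under another scaling was to 0.053, from 0.020. Depth limits the 22 members below the filter and PCDH11X in iEC.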

Other observations

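Protocadherin pseudogenes were listed in 5 rows, PCDHB17P, PCDHB18P, PCDHB19P, PCDHGB8P and PCDHGB9P. PCDHB18P had 6, 0, 3 and 0 counts in iEC and 7, 7, 9 and 0 counts in iREC. PCDHB19P had 5, 1, 4 and 3 counts in iEC and 0, 1, 11 and 0 counts in iREC, its highest value being in iREC E. PCDHGB9P had 8, 1, 0 and 5 counts in iEC and 1, 7, 8 and 3 counts in iREC. None of the 5 exceeded 11 counts in a sample, against 986 to 1140 counts for PCDHGB6 in iEC D and iREC E.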
